A study of Mus musculus with 2 samples.

Results

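This section describes 32 genes whose products limit LINE-1 elements and endogenous retroviruses, in RNA of Dicer_KO mouse embryonic stem cells (mESCs). They were listed by name as factors of heterochromatin, the HUSH complex, MORC ATPases, chromatin assembly and nucleic acid restriction. The rule uses no measured value, but the list was written with earlier results of these data known. All 32 were found among the 43629 Ensembl genes of the count files. With a filter of at least 10 counts on average, 31 of the 32 remained, as did 17788 of all genes, and the missing gene was Trex1, which was listed at 0 in both libraries.

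PolyA RNA was sequenced in 2 libraries that both carry the genotype Dicer knockout, on a 129/Ola background. Replicate 1 was taken at passage 7 and replicate 2 at passage 4. The study made the cells from the E14TG2a line, grown in serum with leukemia inhibitory factor, by cutting Dicer1 with pairs of CRISPR/Cas9 guides and sorting single cells, so that each line is a clone. The labels do not say which of the deletions a library carries, and wild-type (WT) libraries were not analysed here. The comparison that remains is between the Dicer_KO libraries. It has 1 library on each side and no test, and line, deletion, passage and library preparation cannot be told apart in it.

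LINE-1 elements and endogenous retroviruses are copied through RNA, and cells hold them down at several steps. In mESCs, KRAB zinc finger proteins bind the elements and bring in TRIM28 and the methyltransferase SETDB1, which mark the surrounding histone H3 with lysine methylation that HP1 proteins then bind. HUSH and MORC proteins compact the same chromatin, and remodellers and histone chaperones keep it in place through replication. Elements that escape are met by proteins that bind, deaminate or degrade their RNA and DNA. Repeat elements themselves were not counted in the files used here, so the values below are those of the restraining genes and not of the elements.

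The libraries held 41710122 and 41566184 counts on genes, so that 3 counts correspond to 0.0719 and 0.0722 CPM (counts per 1000000 counts on genes). Dicer1, the targeted gene, had 1343 counts in replicate 1 (32.2 CPM) and 1510 in replicate 2 (36.3 CPM). These reads come from all of its exons and the deletions remove only a part, so the level does not by itself check the genotype. The paper reports a loss of Dicer mRNA in both mutants from its RNA sequencing. It also shows immunoblots without DICER protein and northern blots without the mature microRNAs probed. A loss relative to WT cannot be read from the counts used here. The 8 mESC markers were detected in both libraries and summed to 9477 and 6030 CPM, with Pou5f1, the gene of OCT4, at 937 and 1035 CPM. Of 7 feeder fibroblast markers, Postn was at 0 in both libraries and the list summed to 27.4 and 17.6 CPM, mostly from Thy1, at 19.7 and 14.9 CPM. Of all genes, 73.2% differed between the libraries by more than the counting error, so these were not one library deposited in duplicate.

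Ratios between the libraries are given as replicate 1 over replicate 2, after scaling by the TMM factors of edgeR and with a pseudocount of 1. The median log2 ratio of all 17788 genes was 0.02, with quartiles of -0.38 and 0.54. Scaling by total counts moved that median to 0.14, so members are also set against the median of all genes. Intervals are 95% intervals that cover counting error only. CPM use total counts, so a gene whose CPM differ by little can have a ratio of the other sign.

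The chromatin silencers and the nucleic acid restriction factors leaned in opposite directions. Of the 23 chromatin members, 21 were below the median of all genes in replicate 1 relative to replicate 2, and their median log2 ratio was -0.40. Of the 8 measured members that act on nucleic acids, 6 were above it, with a median of 0.52. Another scaling shifts all ratios and their median nearly alike, so these counts could hardly change with it. Chromatin members with a ratio below 1 numbered 21 of 23 with TMM. They numbered 20 with the size factors of DESeq2, with total counts and with TMM factors taken outside chromosome 15. Nucleic acid members with a ratio above 1 numbered 6 of 8 with all of these scalings. Summed over the 23 chromatin members, the level was 4554 CPM in replicate 1 and 6049 CPM in replicate 2, and without Trim28 it was 3499 and 4299 CPM. Summed over the 9 nucleic acid members, with Trex1 at 0, it was 1482 and 1030 CPM.

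**Figure D1:**
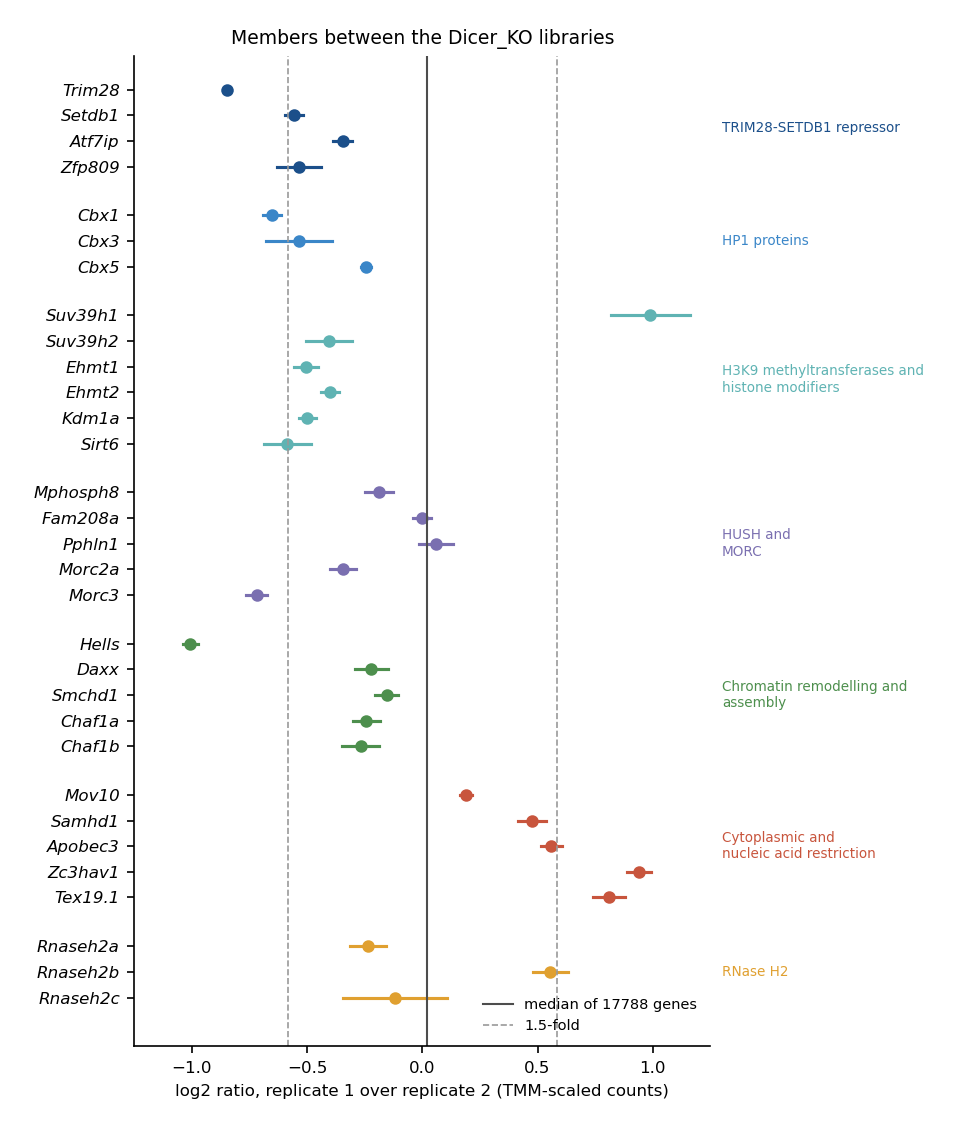
Log2 ratio of TMM-scaled counts, replicate 1 over replicate 2, for the 31 measured members, grouped by role; points are the ratios, horizontal lines their 95% counting intervals, the solid line the median of 17788 genes (0.02) and the dashed lines 1.5-fold. Most chromatin members lie left of the solid line, Suv39h1 lies far to the right, and all 5 measured members of the cytoplasmic and nucleic acid restriction group lie right of it.

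Few members differed by much. At least 1.5-fold higher in replicate 1 were 3 of 31 members (9.68%), where 23.5% of all genes were, and at least 1.5-fold lower were 5 of 31 (16.1%), where 16.1% of all genes were. When the filter was raised to 100 counts on average, 13005 genes were left with all 31 members, and the shares of all genes were 18.6% and 12.9%. At least 2-fold higher were 0 of 31 members against 14.2% of all genes, and at least 2-fold lower was 1 member against 7.14%. The members' shares are therefore below the background for higher genes and near it for lower genes. With total counts in place of TMM, 6 of 31 members were at least 1.5-fold higher, against 27.4% of all genes, and 3 at least 1.5-fold lower, against 12.5%. On that scale 2 members were at least 2-fold higher, against 16.2% of all genes, and 0 at least 2-fold lower, against 5.96%. With TMM factors from outside chromosome 15, 1 member was at least 2-fold higher, against 14.6% of all genes.

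Counting error was small beside these differences. The interval lay wholly below 1 for 21 of 31 members, against 35.4% of all genes, and wholly above 1 for 7, against 37.8%. The 3 members whose interval held 1 were Fam208a, Pphln1 and Rnaseh2c. Genes with many counts leaned low as a whole: of the 7401 genes that averaged 1000 counts or more, 58.8% had a ratio below 1, and their median log2 ratio was -0.09. Of the 21 chromatin members that reach 1000 counts, 20 had a ratio below 1, with a median of -0.40. Of the 7 nucleic acid members that do, 6 had a ratio above 1, with a median of 0.55.

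The TRIM28-SETDB1 repressor was lower in replicate 1 in each of its 4 measured genes. Trim28 (chromosome 7, 12999114 to 13031035, plus strand of GRCm38), the corepressor that KRAB zinc finger proteins recruit, had 43998 counts in replicate 1 and 72757 in replicate 2. That is 1055 CPM (95% Wilson interval 1045 to 1065) against 1750 CPM (1738 to 1763), a mean of 1403 ± 492 CPM (SD, n = 2). It was 1.80-fold lower in replicate 1 (interval 1.78 to 1.82), the second lowest ratio among the members. Setdb1, which trimethylates lysine on histone H3, had 8556 and 11568 counts and was 1.47-fold lower. Its partner Atf7ip, which stabilises SETDB1, had 9479 and 11072 counts, a smaller difference of 1.27-fold. Zfp809, a KRAB zinc finger protein that recognises murine leukemia proviruses, had 1591 and 2117 counts and was 1.45-fold lower. The genes of this complex were thus lower together in replicate 1, with Trim28 the most apart.

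The HP1 proteins, which bind methylated histone H3, were all lower in replicate 1, though to different extents. Cbx1, the gene of HP1 beta, had 9116 counts in replicate 1 and 13178 in replicate 2 and was 1.57-fold lower (1.53 to 1.62). Cbx5, the gene of HP1 alpha, had 30702 and 33414 counts and was 1.18-fold lower (1.17 to 1.20). Cbx5 lies on chromosome 15 (103191544 to 103239816, minus strand), whose 683 genes had a median log2 ratio of 0.59, and at -0.24 it was 0.84 below that median. Cbx3, the gene of HP1 gamma, had only 704 and 938 counts, and its ratio of 1.45-fold lower has the widest interval of the family (1.31 to 1.60). Over 33.2% of its longest coding transcript, Cbx3 matches transcripts of 4 genes elsewhere at 98% identity or more in stretches of at least 100 nt. Reads from such stretches may have been left out or assigned elsewhere, so its level is uncertain.

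Of the histone H3 methyltransferases and other histone-modifying enzymes, 5 of 6 were lower in replicate 1 and Suv39h1 was higher. Ehmt1 and Ehmt2, the paired enzymes GLP and G9a that dimethylate histone H3, had 4873 and 9181 counts in replicate 1 and 6355 and 11139 in replicate 2. They were 1.42-fold and 1.32-fold lower. Kdm1a, the demethylase LSD1, had 10616 and 13791 counts and was 1.41-fold lower. Sirt6, a deacetylase that binds LINE-1 promoters, had 1375 and 1897 counts and a log2 ratio of -0.59, just past the 1.5-fold limit.

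The Suv39h paralogs, which trimethylate histone H3 at pericentromeric repeats, went opposite ways. Suv39h2 had 1501 counts in replicate 1 and 1827 in replicate 2 and was 1.32-fold lower (1.24 to 1.42). Suv39h1 (chromosome X, 8061171 to 8074760, minus strand) had 892 and 413 counts, or 21.4 and 9.94 CPM, and was 1.98-fold higher (1.76 to 2.24), the highest ratio among the 31 members. Per kilobase of exon, Suv39h2 was 2.01 times the level of Suv39h1 in replicate 1 and 5.29 times in replicate 2. Of the exon positions of Suv39h1, 14.6% are shared with Gm14820, a gene on the opposite strand. Whether reads on these positions were left out depends on the strand setting of the counting, which is not given. Gm14820 had 824 and 1350 counts, with a log2 ratio of -0.83, the reverse of Suv39h1. The part of this overlap in the ratio of Suv39h1 was not tested. The 717 measured genes of chromosome X had a median log2 ratio of -0.12.

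**Figure D2:**
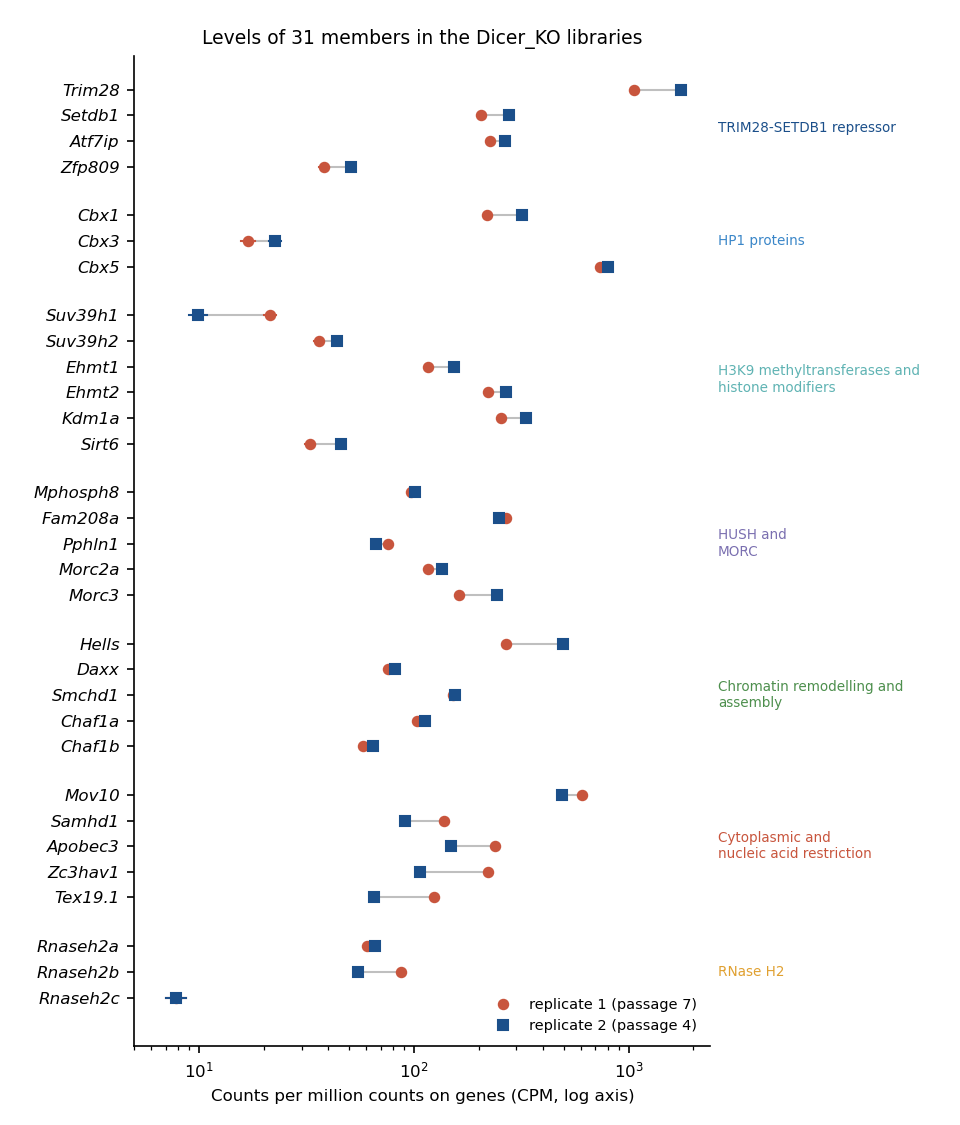
CPM (log axis) of the 31 members with counts, in replicate 1 (circles, passage 7) and replicate 2 (squares, passage 4), grouped by role; grey lines join the libraries and short lines on the symbols are 95% Wilson intervals for counting error. Levels run from 7.79 CPM for Rnaseh2c to 1750 CPM for Trim28 in replicate 2, and the squares lie to the right for most chromatin members and to the left for most restriction factors.

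In the core of the HUSH complex, Fam208a and Pphln1 had the ratios closest to 1 among the chromatin members after TMM scaling. With total counts their log2 ratios were 0.12 and 0.18, and Smchd1 was closer at -0.04. Fam208a, also named Tasor, the scaffold of the complex, had 11230 counts in replicate 1 and 10329 in replicate 2. The interval of its log2 ratio, -0.04 to 0.04, was centred on 0 after TMM scaling. Pphln1, the gene of periphilin, had 3150 and 2777 counts and a log2 ratio of 0.06 (-0.01 to 0.13). It lies on chromosome 15 as well (93398350 to 93491510, plus strand), 0.53 below the median of that chromosome. Mphosph8, the subunit that reads methylated histone H3, had 4033 and 4222 counts and was 1.14-fold lower in replicate 1 (1.09 to 1.19). The MORC ATPases among the members were lower: Morc2a, with 4828 and 5634 counts, by 1.27-fold, and Morc3, with 6729 and 10182 counts, by 1.65-fold (1.60 to 1.70).

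Among remodellers and assembly factors, Hells stood apart from the other 4. Hells (chromosome 19, 38930915 to 38971051, plus strand), the remodeller LSH that supports DNA methylation of repeats, had 11158 counts in replicate 1 and 20599 in replicate 2. These are 268 CPM (263 to 273) and 496 CPM (489 to 502), a mean of 382 ± 161 CPM (SD, n = 2). It was 2.01-fold lower in replicate 1 (1.96 to 2.06), the lowest ratio of all members and the one member past 2-fold. With DESeq2 size factors, total counts, or TMM factors from outside chromosome 15, it did not reach 2-fold, where 7.05%, 5.96% and 6.95% of all genes were at least 2-fold lower. Daxx, a chaperone of histone H3.3, had 3177 and 3403 counts, Smchd1, a chromosome structure protein of the inactive X, 6333 and 6482, and Chaf1a and Chaf1b, subunits of the chromatin assembly factor CAF-1, 4301 and 4676, and 2424 and 2683. Their ratios lay within a narrow range, from 1.11-fold lower for Smchd1 to 1.20-fold lower for Chaf1b.

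The 5 measured cytoplasmic and nucleic acid restriction factors were all higher in replicate 1. Zc3hav1 (chromosome 6, 38305286 to 38354603, minus strand), the antiviral protein ZAP that binds RNA rich in CG, had 9234 counts in replicate 1 and 4417 in replicate 2. These are 221 CPM (217 to 226) and 106 CPM (103 to 109), and the gene was 1.92-fold higher (1.85 to 1.99). Tex19.1 (chromosome 11, 121146143 to 121148319, plus strand), a protein of germ cells and pluripotent cells that restrains LINE-1, had 5160 and 2705 counts and was 1.75-fold higher (1.67 to 1.84). These 2 genes and Suv39h1 are the members at least 1.5-fold higher. Just outside that limit, Apobec3, a cytidine deaminase that edits retroviral DNA, had 9965 and 6211 counts and was 1.47-fold higher (1.43 to 1.52). Samhd1, which depletes the nucleotides needed for reverse transcription, had 5744 and 3793 counts and was 1.39-fold higher. Mov10, an RNA helicase that binds LINE-1 particles and the most abundant of this group, had 25211 and 20331 counts and was 1.14-fold higher (1.12 to 1.16).

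Apobec3 is the third member on chromosome 15 (79891659 to 79915906, plus strand), and its log2 ratio of 0.56 was 0.03 below the median of that chromosome. Of the chromosome's 683 genes, 50.4% were at least 1.5-fold higher in replicate 1. The ratio of Apobec3 therefore did not stand apart from its neighbours, whereas Zc3hav1, Tex19.1 and Samhd1 lie on chromosomes with medians between -0.06 and 0.07. Without the members of chromosome 15, the median log2 ratio was -0.41 for 21 chromatin members and 0.48 for 7 nucleic acid members.

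**Figure D3:**
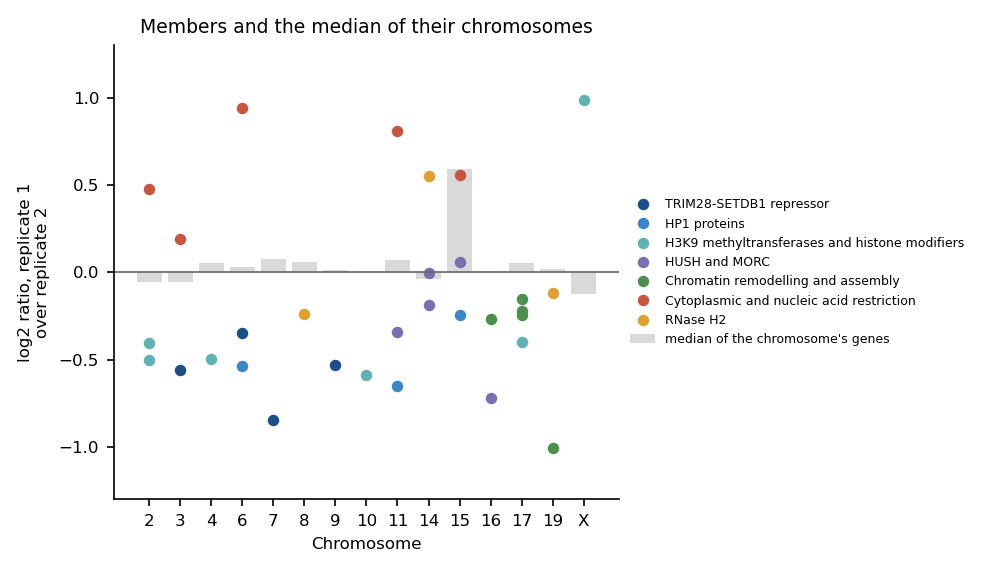
Log2 ratio of TMM-scaled counts, replicate 1 over replicate 2, of each member (points, coloured by role) on the chromosome that holds it; grey bars are the median ratio of all measured genes of that chromosome. The bar of chromosome 15 reaches 0.59 while the others lie between -0.12 and 0.08, and of the 3 members on chromosome 15 only Apobec3 sits near the bar.

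Trex1, the exonuclease that removes cytosolic DNA, gave no measurement. In the GENCODE annotation all 1147 of its exon positions (chromosome 9, 109057933 to 109059734, minus strand) are also exon positions of Atrip on the same strand, and reads on overlapping positions were not counted. Its count of 0 in both libraries therefore places no limit on its expression. Atrip had 749 and 687 counts, or 18.0 and 16.5 CPM. Other members share smaller parts of their exon positions with other genes: 52.5% for Chaf1a, 24.8% for Rnaseh2c, and less than 15% for the rest. For Chaf1a and Rnaseh2c the other gene lies on the opposite strand. Whether reads were lost there depends on the strand setting of the counting, which is not given.

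RNase H2, which removes ribonucleotides from DNA and RNA from hybrids, did not differ as a unit. Rnaseh2a, the catalytic subunit, had 2527 counts in replicate 1 and 2737 in replicate 2 and was 1.18-fold lower (1.12 to 1.24). Rnaseh2b had 3640 and 2278 counts and was 1.47-fold higher (1.39 to 1.55), so the ratio of its level per kilobase to that of Rnaseh2c was 3.08 in replicate 1 and 1.93 in replicate 2. Rnaseh2c had 325 and 324 counts, the fewest of any measured member in either library, and its log2 ratio of -0.12 had an interval of -0.34 to 0.11.

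Promoter windows from RefSeq (build GRCm38.p6, 250 bases before to 50 after each start) were matched for 31 of the 32 members, without Rnaseh2b. They were searched on both strands for GAAA followed after any 2 bases by GAAA, the core of the interferon-stimulated response element, and for the E2F letters TTTCCCGC and TTTGGCGC. The interferon core was in a window of 2 of 31 members, Apobec3 and Cbx5 (6.45%), against 3.99% of 27025 genes. The E2F letters were in 2, Hells and Cbx3 (6.45%), against 1.80%. CCAAT was in 14 of 31 (45.2%), against 41.1% of all genes. Taking the window with the most CG dinucleotides for each gene, the members had a median of 29, against 8 for all genes. The latter include genes without expression here, so the values do not set the members apart from other expressed genes. The 250 bases before the start are shown for 2 members that were higher in replicate 1 and for the 2 with the lowest ratios, with any interferon or E2F match in capitals. The 2 higher members are not those with the highest ratios. Apobec3 has 2 windows, and one with the interferon match was taken. Of the members with that core, Apobec3 was higher in replicate 1 (log2 ratio 0.56) and Cbx5, not shown, was lower (-0.24).

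Apobec3, chr15:79892158-79892407, plus strand, higher in replicate 1: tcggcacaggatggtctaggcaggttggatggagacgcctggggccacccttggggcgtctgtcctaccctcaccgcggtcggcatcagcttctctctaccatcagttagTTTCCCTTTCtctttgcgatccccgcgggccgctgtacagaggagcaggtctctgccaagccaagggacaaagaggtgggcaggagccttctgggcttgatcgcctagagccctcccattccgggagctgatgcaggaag
Zc3hav1, chr6:38354604-38354853, minus strand, higher in replicate 1: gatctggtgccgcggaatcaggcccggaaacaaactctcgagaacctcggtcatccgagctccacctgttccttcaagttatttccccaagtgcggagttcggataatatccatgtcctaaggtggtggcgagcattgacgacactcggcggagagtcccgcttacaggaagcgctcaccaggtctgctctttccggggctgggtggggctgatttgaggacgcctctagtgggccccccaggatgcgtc
Hells, chr19:38930740-38930989, plus strand, lower in replicate 1: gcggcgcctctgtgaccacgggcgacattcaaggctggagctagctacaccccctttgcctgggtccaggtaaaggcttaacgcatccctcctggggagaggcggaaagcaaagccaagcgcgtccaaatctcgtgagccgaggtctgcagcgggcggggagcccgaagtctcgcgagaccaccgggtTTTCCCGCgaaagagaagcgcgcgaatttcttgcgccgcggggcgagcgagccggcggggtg
Trim28, chr7:13023902-13024151, plus strand, lower in replicate 1: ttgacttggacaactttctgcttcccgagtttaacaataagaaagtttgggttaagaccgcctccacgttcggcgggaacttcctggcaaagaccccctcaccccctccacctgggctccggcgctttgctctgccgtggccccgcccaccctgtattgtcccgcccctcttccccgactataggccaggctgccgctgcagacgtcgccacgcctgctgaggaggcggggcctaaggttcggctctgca

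The match in the window of Apobec3 begins 140 bases before the start, and that of Hells 62 bases before it. Zc3hav1 and Trim28 held neither set of letters in their windows. RefSeq starts can differ from GENCODE ones, and the windows of Trim28 and Apobec3 lie within, and that of Hells partly within, the gene spans given above. A match is a description of the letters and does not show that a factor binds.

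A list of 18 interferon-induced genes was also higher in replicate 1. Of its 17 measured genes, 14 exceeded the all-gene median, and 10 were at least 1.5-fold higher against 23.5% of all genes. Their median log2 ratio was 0.90. Oasl2, an oligoadenylate synthetase-like protein, had 2969 counts in replicate 1 and 214 in replicate 2, Psmb8, an immunoproteasome subunit, 1497 and 183, and Parp14 4021 and 1701. The list was not uniform: Ddx58, the gene of the RNA sensor RIG-I, had 2525 and 5147 counts, and Oas1a had a log2 ratio of -0.27. Xaf1, its most abundant gene, had 5473 and 3430 counts. The part of interferon-induced expression in the ratios of Zc3hav1, Samhd1 and Apobec3 was not tested.

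Most measured markers of other cell types were higher in replicate 1 as well. The 6 trophectoderm markers summed to 293 CPM in replicate 1 and 68.8 CPM in replicate 2. Most of this came from Krt8, at 192 and 33.0 CPM (8004 and 1370 counts), and Tfap2c, at 89.7 and 31.5 CPM. Krt8 had a log2 ratio of 2.42 and lies on chromosome 15, whose genes had a median of 0.59. Of the trophectoderm markers, 5 of the 5 that passed the filter were at least 2-fold higher, against 14.2% of all genes, with Elf5 at 70 and 11 counts. Cdx2, which defines that lineage, had 6 and 1 counts. The 6 primitive endoderm markers summed to 17.1 and 10.2 CPM, mostly from Gata4, at 586 and 318 counts. Of the 4 that passed the filter, 3 were above the all-gene median, and Pdgfra, with 83 and 87 counts, was below it. The 6 markers of 2-cell-like cells summed to 178 and 127 CPM, and 5 of 6 were above the all-gene median. Zscan4d, with 2083 and 1943 counts, had a log2 ratio of -0.02. The mESC markers did not lean one way: 2 of 8, Dppa5a (199860 and 84835 counts) and Nanog (47522 and 26215 counts), were at least 1.5-fold higher in replicate 1, against 23.5% of all genes, and 0 of 8 were at least 1.5-fold lower, against 16.1%. Pou5f1, Zfp42 and Esrrb had log2 ratios of -0.26, -0.32 and -0.06, and the other 3 lay between 0.19 and 0.43. In bulk RNA, more cells of a type and more RNA per cell cannot be told apart, and the part of these markers in the members' ratios was not tested.

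**Figure D4:**
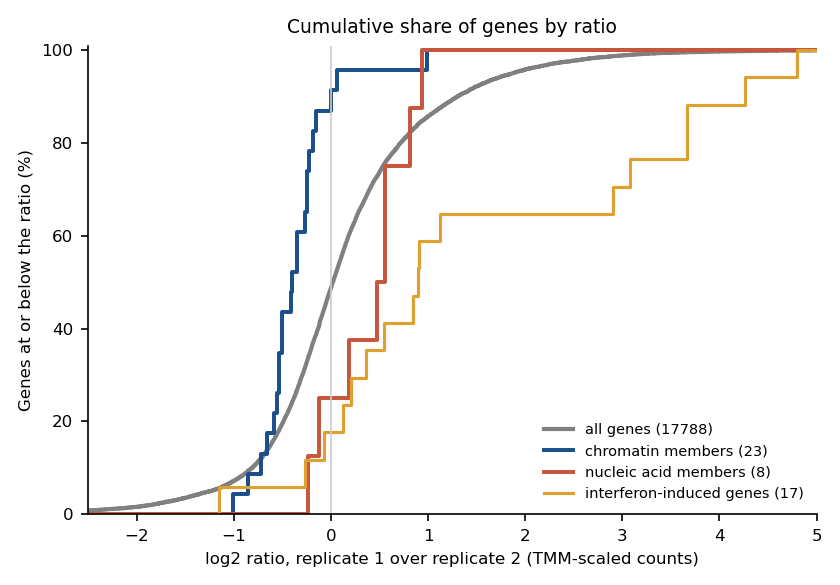
Cumulative share of genes (%) by log2 ratio of TMM-scaled counts, replicate 1 over replicate 2, for all 17788 genes (grey), 23 chromatin members (blue), 8 nucleic acid members (red) and 17 interferon-induced genes (yellow). The blue curve runs left of the grey one over most of its length, and the red and yellow curves mostly right of it, with medians of -0.40, 0.52 and 0.90 against 0.02.

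The related factors of these pathways were split by role in a like way. Of 44 related genes, 43 were measured. At least 1.5-fold higher in replicate 1 were 5 of 43, against 23.5% of all genes, and at least 1.5-fold lower were 5 of 43, against 16.1%. The median log2 ratio was -0.34 for 9 zinc finger and TRIM genes, with Zfp42, also an mESC marker, among them. It was -0.36 for 12 corepressors and methyltransferase partners. For 4 relatives of HUSH and MORC genes it was -0.17, and for 8 histone chaperones and partners -0.31. For 10 genes of nucleic acid sensing and restriction it was 0.72.

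The lowest ratios among the related genes belonged to Zfp819, a zinc finger protein (819 counts in replicate 1 and 2169 in replicate 2), Asf1a, a histone chaperone (769 and 2034), and Zfp57, which protects imprints (14438 and 23097). The highest belonged to Isg20, an exonuclease (203 and 13 counts), Tmem173, the gene of STING (406 and 31), and Tex19.2, the neighbour and paralog of Tex19.1 (193 and 45). Ddx17, the most abundant, had 30924 and 19626 counts and a log2 ratio of 0.53. It lies on chromosome 15, whose genes had a median of 0.59, so it did not stand above its neighbours. All 5 related genes that were at least 1.5-fold higher belong to the sensing and restriction group, and all 5 that were at least 1.5-fold lower belong to the chromatin groups.

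Most members were expressed above the typical gene. Levels were compared between genes as RPKM, which is CPM divided by the kilobases in the union of annotated exons. The median of the 31 measured members was 19.0 RPKM, against 4.37 RPKM for the 17637 measured genes with a known length, and 29 of 31 members were above the median gene. Above the 90th percentile of all genes were 10 of the 31 members. Trim28 was highest, at 254 RPKM in replicate 1 and 421 in replicate 2. It was followed by Mov10, at 108 and 87.2 RPKM, and Cbx5, at 81.7 and 89.3 RPKM, whose ranges overlap. Cbx1 came next at 51.1 and 74.2 RPKM.

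Over the union of exons, the lower end of the order held Smchd1 (7.60 and 7.80 RPKM), Rnaseh2c (4.54 and 4.55), Cbx3 (2.82 and 3.77) and Suv39h1 (4.06 and 1.89). Of the 30 neighbouring pairs in the order, 6 did not overlap between the libraries: Trim28 and Mov10, Cbx5 and Cbx1, Setdb1 and Mphosph8, Suv39h2 and Smchd1, Smchd1 and Rnaseh2c, and Rnaseh2c and Cbx3. The other 24 neighbours did not differ beyond the spread of the 2 libraries. Positions in the middle of the order are therefore not resolved. Several of the 6 pairs also depended on the gene length used. Over the longest transcript, Smchd1 stood at 21.5 and 22.1 RPKM, above Suv39h2 at 8.32 and 10.2 RPKM. On that length Cbx1 was above Cbx5, and Rnaseh2c and Cbx3 overlapped. Setdb1 and Mphosph8 overlapped when shared exon positions were left out. The level of Cbx3 is uncertain for the reason given above.

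**Figure D5:**
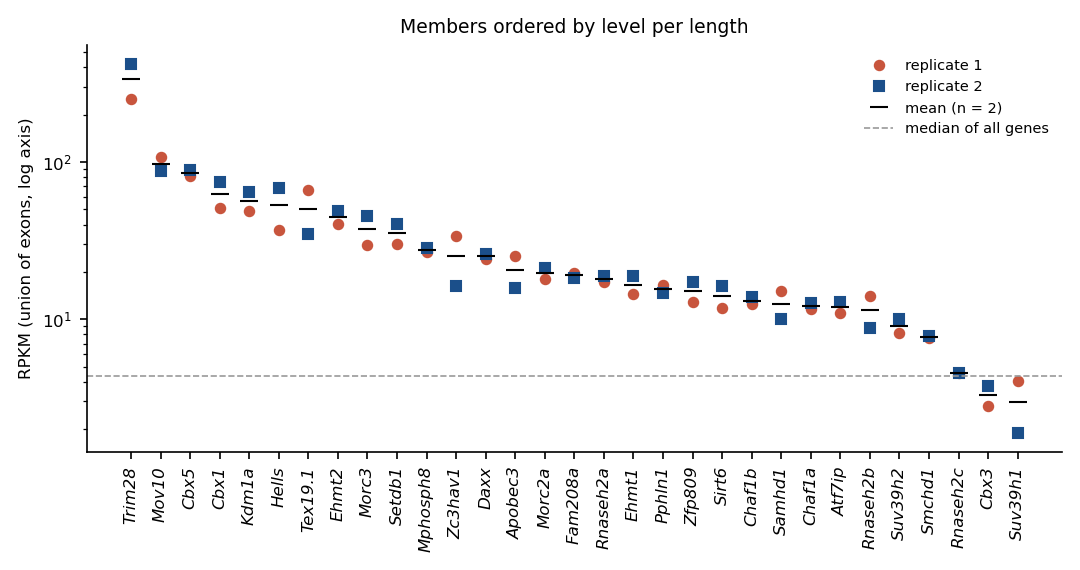
Level per length (RPKM over the union of exons, log axis) of the 31 measured members in order of their mean; circles are replicate 1, squares replicate 2, dashes the mean of both (n = 2) and the dashed line the median of all measured genes (4.37 RPKM). Trim28 lies alone at the top and Cbx3 and Suv39h1 have means below the dashed line.

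Within complexes, some pairs of genes kept their order in both libraries and others depended on the gene length used. Ehmt2 was 2.79 times the level of Ehmt1 in replicate 1 and 2.59 times in replicate 2. Trim28 was 8.48 and 10.4 times the level of Setdb1. Chaf1a and Chaf1b stood at ratios of 0.94 and 0.92, but at 1.97 and 1.94 when exon positions shared with other genes were left out of the length. The shared positions of Chaf1a lie opposite another gene, so which length applies depends on the strand setting, which is not given. Cbx5 was 1.60 and 1.20 times the level of Cbx1 over the union of exons, but 0.91 and 0.68 times over the longest transcript, so the order of these HP1 genes depends on the length. Fam208a was 0.73 and 0.64 times the level of Mphosph8 over the union of exons, and 1.08 and 0.95 times over the longest transcript.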

How the data were processed

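RNA sequencing of 2 Dicer_KO libraries was analysed. Per the paper's methods and the submitters' processing notes, the authors trimmed reads with Trimmomatic, aligned them to mm10 by STAR (version 2.4.2a) and ran featureCounts (version 1.4.5-p1) on Ensembl genes. Reads on regions shared by genes were ignored. The files as deposited hold raw counts, which had not been normalized. The protocol keeps strand, but the strand and multiple-hit settings of the counting are not given in the sources used here.

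Members and lists were chosen with earlier results of these data known. All members are reported. Of other lists, at most the 3 highest and 3 lowest ratios among genes averaging 100 counts or more and the most abundant gene are named, besides cell type markers and genes overlapping a member, which were added after their values were seen. Replicate 2 was scaled to replicate 1 by TMM (edgeR 4.0.16, R 4.3.3). Log2 ratios used a pseudocount of 1, their intervals are exact binomial (scipy 1.17.1), and CPM intervals are Wilson's. With 1 library on each side, no model was fitted and no p-value was computed. Ratios and intervals were tested on simulated data. Gene names, lengths and positions came from GENCODE M21 (GRCm38), which lacked 1167 of the identifiers, and near-identical copies from blastn. Library totals are given in the results, and they set the width of the intervals. Alternatives were DESeq2 size factors (version 1.42.0), total counts, TMM outside chromosome 15, a pseudocount of 0.1, other count minimums and other gene lengths.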

Additional observations from a re-analysis of the deposited data

How the results depend on the processing

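No paired analysis was possible because there is a single group, Dicer_KO. Levels with 1 of the 2 libraries left out are simply those of the other library and say nothing of stability. Members at least 1.5-fold higher in replicate 1 numbered 3 of 31 (all genes 23.5%), and 6 with total counts (27.4%). Those at least 1.5-fold lower numbered 5 (16.1%), and 3 with total counts (12.5%). With DESeq2 size factors or with TMM factors from outside chromosome 15 they numbered 4, without Sirt6. The shares of all genes were not computed for these 4. Members at least 2-fold higher numbered 0 (14.2%), but 2 with total counts (16.2%) and 1 with TMM factors from outside chromosome 15 (14.6%). Members at least 2-fold lower numbered 1 (7.14%), and 0 with total counts (5.96%), with DESeq2 size factors (7.05%) and with factors from outside chromosome 15 (6.95%). Total counts shift all ratios alike. The median of the trophectoderm markers relative to all genes was 1.69, and 1.74 with a pseudocount of 0.1. Among genes averaging 1000 counts or more, an alternative chosen after seeing the data, the chromatin members lay at -0.31 and the nucleic acid members at 0.64 relative to all genes, against -0.42 and 0.50 with all genes measured. Without members that share at least 10% of their exon positions and without Cbx3, also chosen after seeing the data, these were -0.47 and 0.54. None of the 28 ratios whose counting interval left out 1 changed sign under another scaling or pseudocount, while Fam208a, whose interval held 1, had a log2 ratio of 0.12 with total counts. Levels per length moved by more than the spread between libraries for 23 values with the longest transcript as length. Counting intervals were widest for Rnaseh2c, Suv39h1 and Cbx3, and depth does not make up for the lack of a second library of each line.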
